A study of Mus musculus with 16 samples.

Results

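The miR-181 family has 4 guide strands, mmu-miR-181a-5p, mmu-miR-181b-5p, mmu-miR-181c-5p and mmu-miR-181d-5p, among the 1881 mouse miRNAs of the array. They were read from serum of mice aged 4, 8, 36 or 58 weeks, with 4 separate mice per age. The members were found by name, but the family was chosen by its signals and detection calls across these ages, so its differences between ages are a description with no test. All mice were male, no treatment is named in the labels, blood was drawn from the heart into serum separator tubes, and the strain was not given in the sources used here. RNA from each serum, 1 ng as input, was labelled with Cy3 and hybridized to 1 single-colour Agilent array per mouse, so 16 arrays were used. The study asked which serum miRNAs differ with age.

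A miRNA binds messenger RNAs mainly through its seed, the short stretch near its 5′ end, and lowers their translation and stability. The miR-181 guides share 1 seed and are abundant in thymus, lymphocytes and brain. In mouse T cells miR-181a raises the sensitivity of the T cell receptor by repressing phosphatases that dampen its signal, and the miR-181a and miR-181b pair is needed for natural killer T cells to develop. In serum, miRNAs are carried in vesicles or bound to protein, and a serum level cannot tell fewer releasing cells from less miRNA released per cell.

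The guide strands are shown from 5′ to 3′ because their near identity bears on what the array probes can separate. Capitals mark the seed, bases 2 to 8, and the sequences are those of RefSeq on GRCm38.p6.
miR-181a-5p: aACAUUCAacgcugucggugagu
miR-181b-5p: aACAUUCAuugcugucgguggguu
miR-181c-5p: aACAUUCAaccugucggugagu
miR-181d-5p: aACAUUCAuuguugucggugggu
Of 1679 mature mouse miRNAs in the RefSeq table, these 4 alone carry this seed. Counted from 1 at the 5′ end, miR-181a-5p and miR-181b-5p differ by A9U, C10U and A21G, and miR-181b-5p has 1 more base. miR-181b-5p and miR-181d-5p differ by C12U, with 1 more base on miR-181b-5p. miR-181a-5p and miR-181c-5p differ by 1 edit, a base absent from miR-181c-5p. Signal shared between members through cross-hybridization was not tested.

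The guides of miR-181a and miR-181b each come from a pair of precursors. On chromosome 1, miR-181a-5p lies at chr1:137966468-137966490 and miR-181b-5p at chr1:137966650-137966673, both on the plus strand with 159 bases between them. On chromosome 2 they lie at chr2:38852741-38852763 and chr2:38853845-38853868, also on the plus strand, with 1081 bases between them and within the spans of Nr6a1 and the lncRNA Nr6a1os. miR-181c-5p lies at chr8:84178924-84178945 and miR-181d-5p at chr8:84178759-84178781, both on the minus strand and near each other. The array reads mature strands, so the copies on chromosomes 1 and 2 cannot be told apart.

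The arrays lay on 2 slides, with all arrays of 4 and 8 weeks on slide 1 and all arrays of 36 and 58 weeks on slide 2. Age and slide therefore cannot be told apart between 36 or 58 weeks and 4 or 8 weeks. Background, read as the SD of negative-control spots, ran from 1.82 to 4.45 on all but 3 arrays. On those it reached 7.45 (4-week replicate 4), 19.1 (4-week replicate 1) and 59.3 (36-week replicate 4), and the Agilent Feature Extraction software marked these 3 for evaluation. They were kept. Between 163 and 360 miRNAs were detected per array. The number of arrays, 4 per age, limits the precision.

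Detection calls for mmu-miR-181a-5p numbered 2 of 4 mice at 4 weeks, 3 of 4 at 8 weeks, 0 of 4 at 36 weeks and 0 of 4 at 58 weeks. Its mean background-subtracted intensity over probes, before scaling between arrays, was 14.5, 87.4, 19.2 and 6.70 in replicates 1 to 4 at 4 weeks. It was 7.29, 4.07, -2.25 and 11.2 at 8 weeks. The 4-week replicate 2 stood far above every other array, and the software called the miRNA detected there and on 4-week replicate 3. On 4-week replicates 1 and 4, 2 of the marked arrays, it was not called. At 36 weeks the intensities were 2.28, 6.04, 9.11 and -7.57, and at 58 weeks 4.90, 1.00, 1.86 and 2.29. These overlap the 8-week values, yet none was called detected. The dimmest detected signal of an array, after scaling, ran from 1.03 to 3.62 at 8 weeks and from 3.96 to 201.8 at 36 weeks. At 58 weeks it was 0.283 on replicate 3 and at least 11.1 on the others. Where detected at 8 weeks, miR-181a-5p had 4.298 to 8.165 on this scale. On 36-week replicate 3 (7.87 against 6.12) and 58-week replicate 3 it lay above that limit without a call. The part of these limits in the calls was not tested.

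mmu-miR-181b-5p was detected on the same 5 arrays. Its intensity was 33.4, 77.7, 26.2 and 9.71 in replicates 1 to 4 at 4 weeks, and 8.88, 5.70, -0.706 and 8.65 at 8 weeks. Before scaling, all 4 values at 4 weeks lay above all 4 of the 8-week values, though those of replicates 1 and 4 were not called detected. After scaling the 4-week and 8-week values overlapped, so nothing is read from this. At 36 weeks it was 1.60, 3.86, 3.48 and -24.8, and at 58 weeks 4.39, 0.206, 2.18 and 1.59. Before scaling, no array of 36 or 58 weeks reached the lowest 4-week intensity. After scaling, 58-week replicate 1 (5.22) lay just above 4-week replicate 4 (5.20).

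miR-181c-5p and miR-181d-5p were each detected on 1 of 16 arrays, 4-week replicate 2, the array on which miR-181a-5p and miR-181b-5p were also brightest. There the intensity was 6.14 for miR-181c-5p and 12.9 for miR-181d-5p. For miR-181c-5p the other arrays ran from -26.9 on 36-week replicate 4 to 3.69 on 8-week replicate 4. For miR-181d-5p they ran from -81.4 on 36-week replicate 4 to 3.05 on 8-week replicate 4. Both lows lay on the array with the widest background.

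The deposited total signal of each detected miRNA carries the software's own error. For miR-181a-5p it was 37.1 ± 3.02 and 6.75 ± 1.06 on 4-week replicates 2 and 3, and 2.72 ± 0.523, 1.52 ± 0.405 and 3.79 ± 0.583 on 8-week replicates 1, 2 and 4. For miR-181b-5p it was 33.0 ± 2.49 and 11.1 ± 1.41 at 4 weeks, and 2.49 ± 0.511, 1.59 ± 0.408 and 3.67 ± 0.679 at 8 weeks, on the same arrays. Both members thus had their highest total on 4-week replicate 2. The totals of miR-181c-5p and miR-181d-5p there were 1.66 ± 0.510 and 5.46 ± 0.798. Over all detected miRNAs and arrays, no total was under 3.00 times its error. The calls and the errors come from the same software, so this ratio is no separate evidence for detection.

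After scaling between arrays, values under a floor of 1.92 on the log2 scale were set to it and have no order there. The floor is the median, over arrays, of the dimmest detected signal, so on 8 of the 16 arrays some detected miRNAs lay under it. miR-181a-5p averaged a log2 signal of 3.84 ± 1.85 in the 4-week mice, 2.45 ± 0.52 in those of 8 weeks, 2.29 ± 0.50 in those of 36 weeks and 2.08 ± 0.31 in those of 58 weeks (SD, n = 4 each). That of miR-181b-5p was 4.32 ± 1.56, 2.55 ± 0.46, 1.92 with all 4 arrays at the floor, and 2.04 ± 0.23 at the same ages. The SD at 4 weeks was the widest for both, and an SD at or near the floor understates the spread. miR-181c-5p averaged 2.07 ± 0.30 at 4 weeks and lay at the floor on every array of the other ages. miR-181d-5p averaged 2.34 ± 0.83 at 4 weeks, 1.92 at 8 and 36 weeks, and 1.95 ± 0.05 at 58 weeks.

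**Figure D1:**
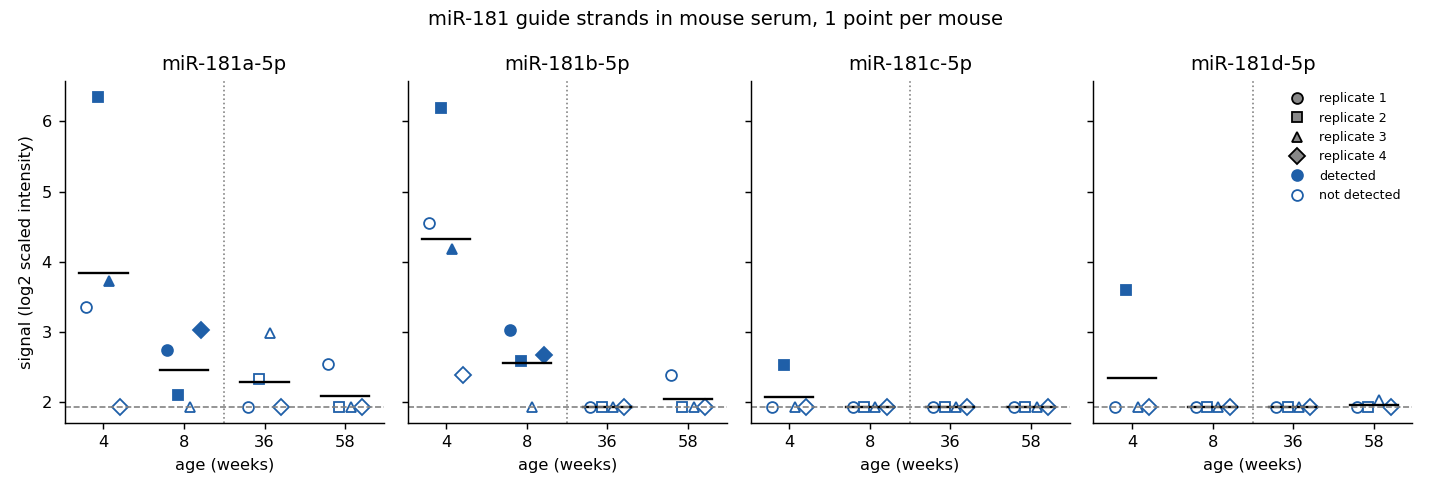
Log2 scaled intensity of the 4 miR-181 guide strands by age in weeks, 1 point per mouse, filled where the miRNA was detected. The short bar is the mean of 4 mice, the dashed line the floor of 1.92, and the dotted line parts the slides. No array of 36 or 58 weeks is filled, and 4-week replicate 2 is highest in each panel.

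Within slide 1, the log2 difference of 8 minus 4 weeks was -1.39 ± 0.71 (SE) for miR-181a-5p and -1.77 ± 0.58 for miR-181b-5p, and the ages overlapped for both after scaling. Without 4-week replicate 2 these were -0.55 and -1.15, without 4-week replicate 4 -2.03 and -2.42, and without the 3 marked arrays -2.59 and -2.63. Under quantile normalization they were -0.030 and -0.016, so the size rested on the arrays kept and on the scaling. The median over all 285 tested miRNAs in the same comparison was -0.72 in the main fit and 0.20 under quantile normalization. In the main fit, 94 of the 285 had a lower difference than miR-181a-5p, and 23 had a lower one than miR-181b-5p. Detection went the other way from the means, with 3 of 4 arrays at 8 weeks and 2 of 4 at 4 weeks.

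Between 58 and 4 weeks, miR-181b-5p was at least 2.30-fold lower at 58 weeks and miR-181a-5p at least 1.64-fold lower. These are bounds because neither was detected at 58 weeks: the 4-week mean is set against, on each later array, the highest of the lowest detected signal, the member's own signal and the floor. The 4-week means include 2 arrays without detection, so the bounds are approximate. Without 4-week replicate 2 they were 1.495 for miR-181b-5p and 0.919 for miR-181a-5p, where no fold can be given. Without 4-week replicate 4 they were 3.61 and 2.56. The fitted log2 differences were -2.28 ± 0.58 (SE) and -1.76 ± 0.71, and they depend on the floor. Without 4-week replicate 2 they were -1.66 and -0.92. With normexp background correction they were near 0, at 0.021 ± 0.26 (SE) and 0.060 ± 0.28, where the median over all tested miRNAs was 0.26. Under quantile normalization miR-181b-5p differed by -0.85 and with its brightest probe by -0.98, both smaller than its bound, which holds for the scaling and probes used here. In the main fit, 3 of 285 tested miRNAs lay lower than miR-181b-5p and 5 lower than miR-181a-5p, and the median over all was -0.0031.

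Between 36 and 4 weeks, miR-181b-5p was at least 1.45-fold lower at 36 weeks, and leaving out 1 array moved the bound between 0.942 (4-week replicate 2) and 3.54 (36-week replicate 4). For miR-181a-5p the bound was under 1, so no fold is given. Leaving out 1 array moved that bound between 0.544 (4-week replicate 2) and 2.33 (36-week replicate 4). The fitted log2 differences were -2.40 ± 0.58 (SE) for miR-181b-5p and -1.55 ± 0.71 for miR-181a-5p, with a median of 0.32 over all tested miRNAs. Without 4-week replicate 2 they were -1.78 and -0.71. With normexp they were near 0, at 0.046 ± 0.26 (SE) and 0.11 ± 0.28, where the median over all tested miRNAs was 0.43. This was the 1 comparison in which a member's groups did not overlap: every 36-week value of miR-181b-5p was at the floor and every 4-week value above it. The same held for 1.40% of the tested miRNAs, and nothing is read from it, since the family was picked with these values known. In the other 5 pairs 0 members were lower on every later array, where 3.86% of the tested miRNAs were so for 8 against 4 weeks, 2.81% for 58 against 4, 1.40% for 36 against 8, 3.51% for 58 against 8 and 0.351% for 58 against 36.

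Against 8 weeks, neither later age allowed a fold, because every bound of miR-181a-5p and miR-181b-5p was under 1. Their log2 differences were -0.16 and -0.63 for 36 minus 8 weeks and -0.37 and -0.51 for 58 minus 8 weeks, and the groups overlapped. Their SE was 0.71 for miR-181a-5p and 0.58 for miR-181b-5p. Within slide 2, 58 minus 36 weeks gave -0.21 for miR-181a-5p and 0.12 for miR-181b-5p, with no detection at either age. Single arrays set these small values: miR-181a-5p had 0.018 without 36-week replicate 3 and miR-181b-5p 0 without 58-week replicate 1, and for 36 minus 8 weeks miR-181a-5p had 0.034 without 8-week replicate 4. For miR-181c-5p and miR-181d-5p the bounds of 4 over 8 weeks, 1.11 and 1.34, rested on 4-week replicate 2 alone.

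The slope per doubling of age was -0.37 ± 0.16 (SE) on the log2 scale for miR-181a-5p and -0.53 ± 0.15 for miR-181b-5p. Without 4-week replicate 2 the slopes were -0.19 and -0.39. With normexp they were 0.052 ± 0.062 (SE) and 0.040 ± 0.058, where the median slope over all tested miRNAs was 0.12. Over the whole table, limma called 1 of 285 miRNAs in the trend (0.351%), in any age difference (0.351%), between 36 and 4 weeks (0.351%) and between 58 and 4 weeks (0.351%), namely miR-214-3p in each. The other 4 comparisons had 0 calls (0%), with 6 miRNAs at an unadjusted p under 0.05 for 8 against 4 weeks, 85 for 36 against 8, 15 for 58 against 8 and 5 for 58 against 36. Of the 2 members tested, 0 were called in any comparison, and nothing is read from this count. Without 4-week replicate 4, 1 of the 2 was called for any difference and for 36 and 58 against 4 weeks (2 of 285 miRNAs called in each). With no scaling, 1 of the 2 was called in the trend (6 of 285). The same setting called 1 of the 2 for any difference and for 36 and 58 against 4 weeks (3 of 285 in each). With median scaling 1 was called in the trend (4 of 285). Nothing is read from these calls, since the family was picked with these values known. mmu-miR-181c-5p and mmu-miR-181d-5p did not pass the filter, which asked for detection on at least 3 of 4 arrays of at least 1 age.

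**Figure D2:**
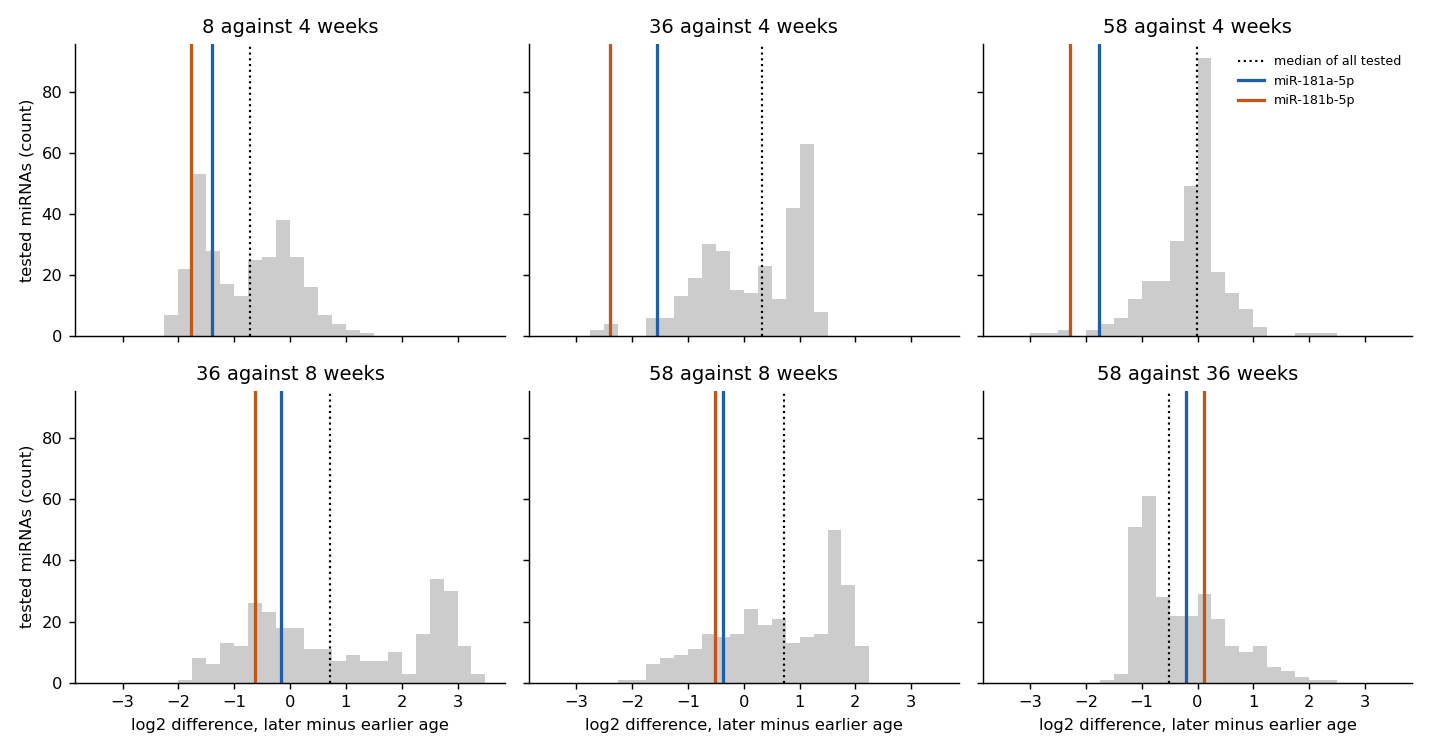
Histograms of the log2 difference, later minus earlier age, over the 285 tested miRNAs for the 6 pairs of ages, with counts on the y axis. Lines mark miR-181a-5p, miR-181b-5p and the median. Both members lie at the low end against 4 weeks at 36 and 58 weeks, and inside the bulk in the pairs without 4 weeks.

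The probes of a member did not read alike. Each guide has 2 probes, with 12 to 15 spots kept per array after outlier spots were left out. For miR-181a-5p, probe A_54_P1122 was below probe A_54_P1123 on 16 of 16 arrays. On 4-week replicate 2 they read 42.9 ± 1.01 and 131.8 ± 1.55 (SE over spots). At 58 weeks A_54_P1122 ran from -4.17 to -0.756, while A_54_P1123 ran from 4.93 to 11.1. Across the 16 arrays the 2 probes had a Pearson r of 0.46 and a Spearman rho of 0.14, and 4-week replicate 2 and 36-week replicate 4 lie far from the rest. At 36 and 58 weeks A_54_P1122 was under 0 on all 8 arrays and A_54_P1123 above 0 on all 8.

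For miR-181b-5p the probes kept their order and moved together. A_54_P2650 was below A_54_P2651 on 16 of 16 arrays, with a Pearson r of 0.91 and a Spearman rho of 0.94. On 4-week replicate 2 they read 59.9 ± 1.42 and 95.6 ± 1.26. At 58 weeks they ran from -2.62 to 0.537 and from 3.03 to 8.24. The probes of miR-181c-5p and miR-181d-5p each had a Pearson r of 0.98, which 36-week replicate 4 weighs on, with its negative values from -35.5 to -18.3 for miR-181c-5p and from -101 to -61.6 for miR-181d-5p.

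**Figure D3:**
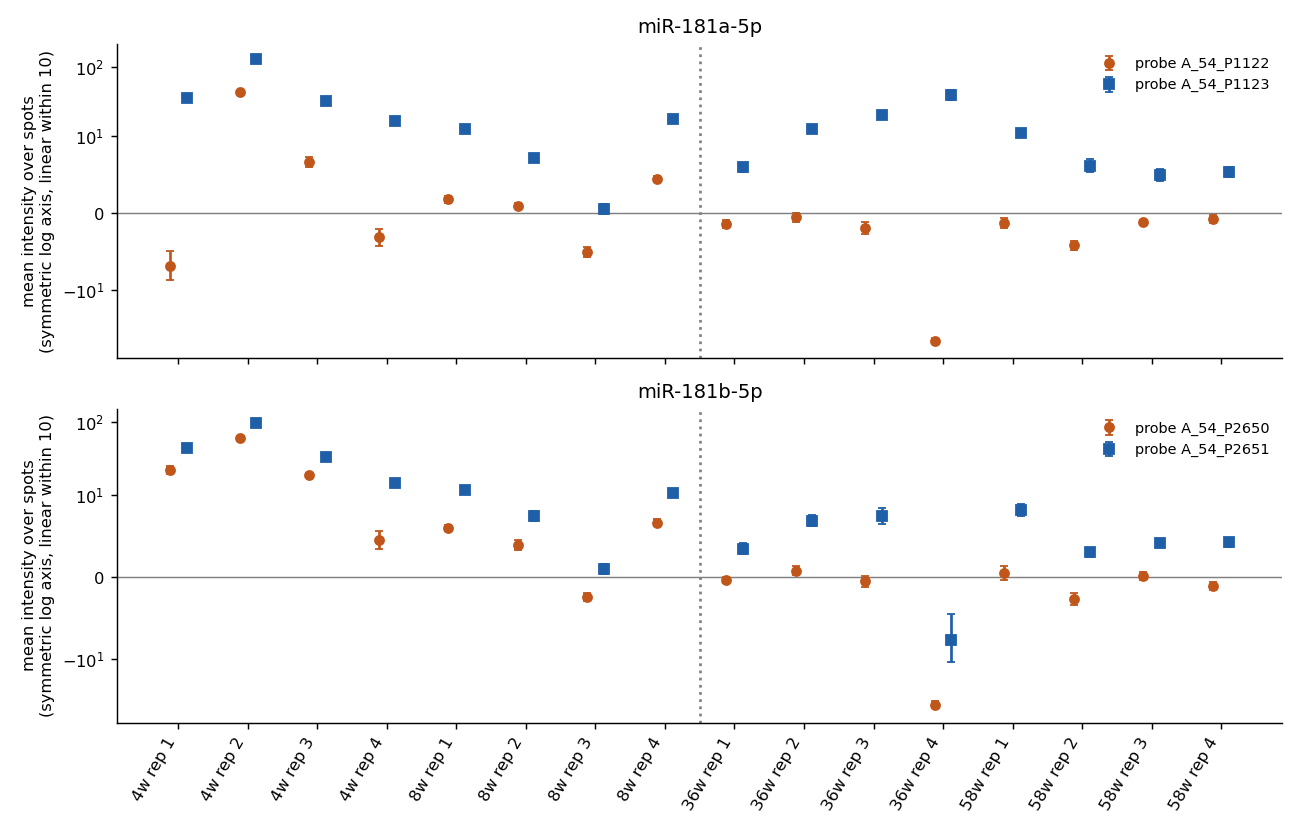
Mean intensity over spots of the 2 probes of miR-181a-5p and of miR-181b-5p on each of the 16 arrays, with SE over spots, on a symmetric log axis that is linear within 10. The dotted line parts the slides. The second probe is higher on 16 of 16 arrays in both panels.

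Detection of miR-181a-5p and miR-181b-5p went with low background of the arrays on slide 1. On slide 1, the 5 arrays that detected miR-181a-5p and miR-181b-5p were the 5 with the lowest SD of negative-control spots, from 1.82 to 2.59. The 3 that did not had 3.54, 7.45 and 19.1. On slide 2 the SD ran from 2.23 to 59.3, and 58-week replicate 3, at 2.23, lay below 4-week replicate 3, at 2.59, without detecting either. miR-181c-5p and miR-181d-5p were detected on 4-week replicate 2, at 2.03, and not on 8-week replicates 1, 2 and 4, at 2.01, 1.82 and 1.95. The part of background in the detection pattern was not tested. Another measure asks how bright a guide was among the 1309 miRNAs detected on no array. On the 5 detecting arrays miR-181a-5p and miR-181b-5p lay above at least 99.9% of them. That is close to fixed beforehand, because the 1309 were chosen by the same detection calls. On 58-week replicate 3 miR-181a-5p lay above 98.9%, miR-181b-5p above 99.2% and miR-181d-5p above 99.7%. On 36-week replicate 4 they lay above 70.7%, 66.8% and 44.3%.

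The opposite arms, the 3p strands of the same precursors, were not used to pick the family. Of the 6 arms, 0 passed the detection filter, so none was compared between ages. miR-181a-2-3p was detected on 1 array, 4-week replicate 1, a marked array on which no guide was detected. Its intensity there was 78.5, against 162 without detection on 36-week replicate 4. The arms followed background closely: over 16 arrays the Spearman rho of intensity with the SD of negative-control spots was 0.84 for miR-181a-1-3p and 0.99 for miR-181a-2-3p. It was -0.98 for miR-181b-1-3p, -0.97 for miR-181b-2-3p and -0.98 for miR-181d-3p, whose intensities were under 0 on all 16 arrays, and 0.08 for miR-181c-3p. For the guides it was -0.23 for miR-181a-5p, -0.26 for miR-181b-5p, -0.67 for miR-181c-5p and -0.82 for miR-181d-5p. Within slides it was 0.10 and 0 for miR-181a-5p and 0.40 and -0.048 for miR-181b-5p on slides 1 and 2.

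**Figure D4:**
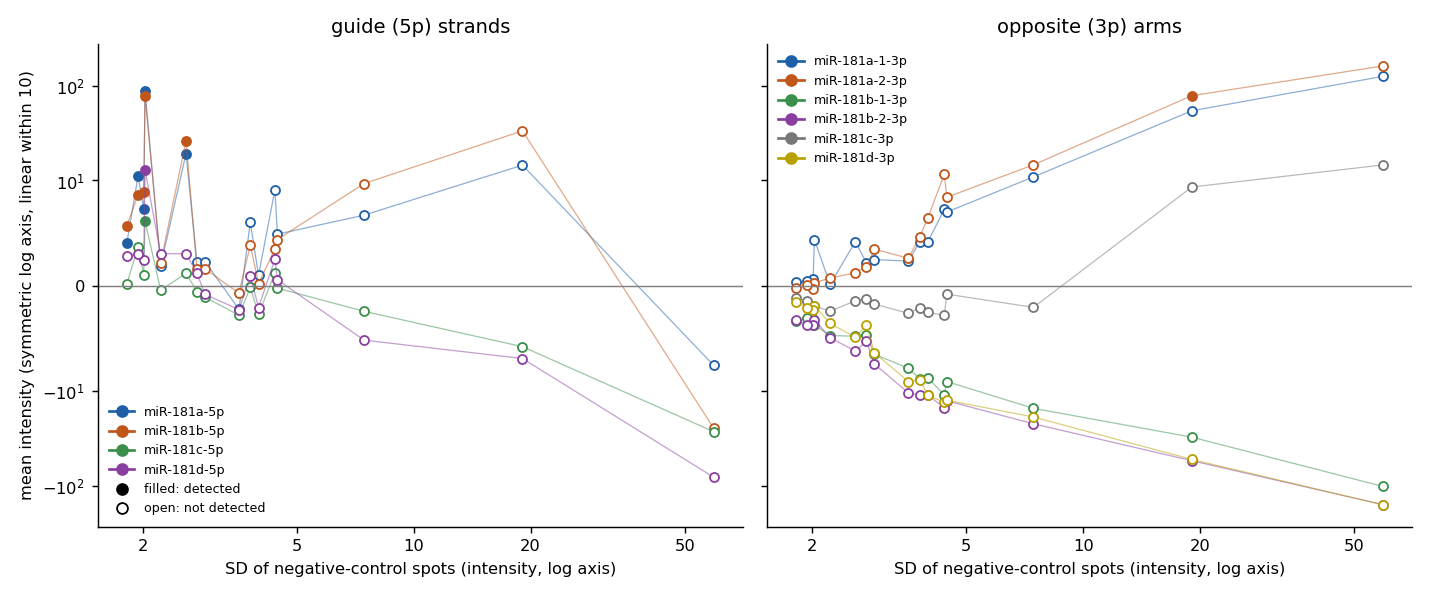
Mean intensity of the 4 guides and 6 opposite arms (symmetric log axis, linear within 10) against the SD of the negative-control spots (log axis), 1 point per array, joined in order of that SD and filled where detected. The detected guides lie at an SD of 2.59 or lower, while the arms fan out as the SD grows.

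The detection pattern of miR-181a-5p and miR-181b-5p was shared by 18 miRNAs outside the family. Of these, 16 have a sequence in the RefSeq table and 0 of them carry the miR-181 seed. In all, 22 miRNAs were detected on 5 or more of the 8 arrays of slide 1 and on none of slide 2, and 0 the other way round. That contrast depended on the marked arrays. Without them, which left 6 arrays on slide 1 and 7 on slide 2, the counts were 22 and 15. Likewise 572 miRNAs were detected on at least 1 array of slide 1 and 364 on slide 2, and without the marked arrays the counts were 360 and 354. Of the 120 miRNAs detected on 1 array only, 16 were detected on 4-week replicate 2, as miR-181c-5p and miR-181d-5p were.

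**Figure D5:**
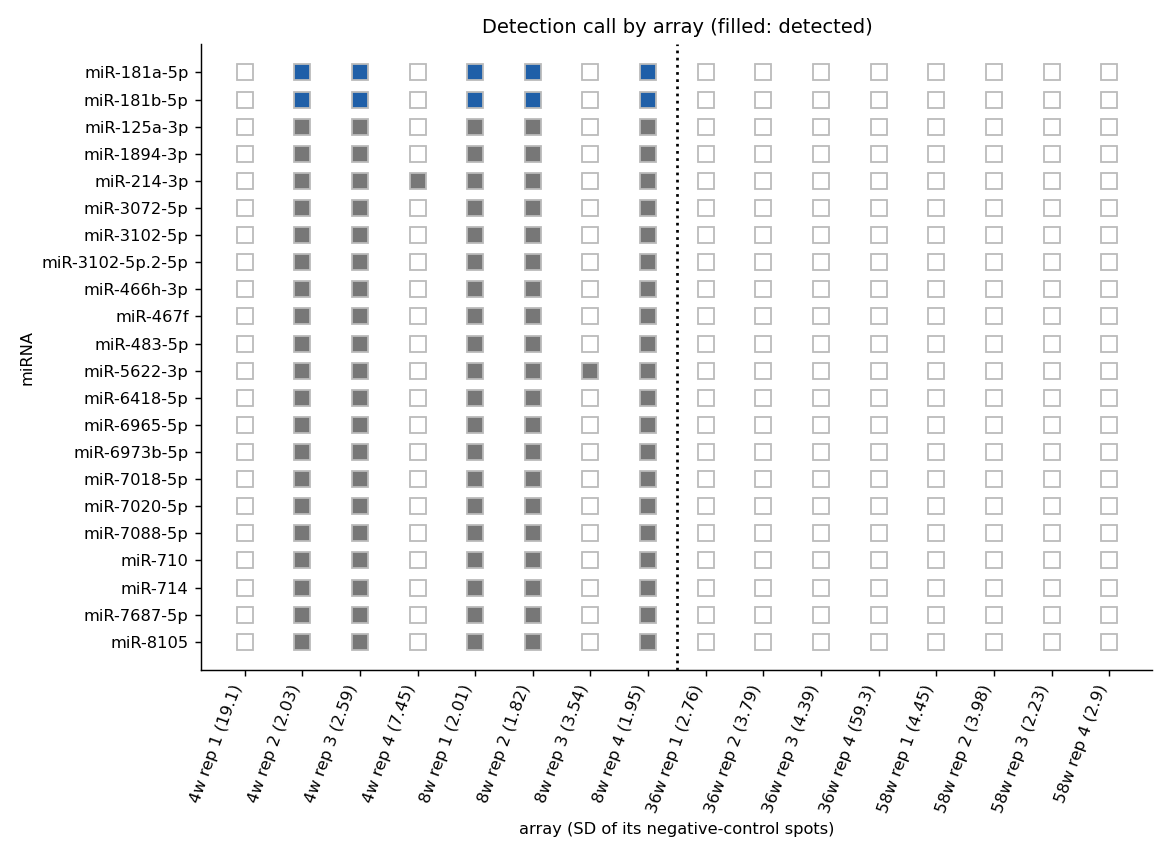
Detection calls (filled) on the 16 arrays for the 22 miRNAs detected on 5 or more arrays of slide 1 and on none of slide 2, with the SD of negative-control spots beside each array name. The rows of miR-181a-5p and miR-181b-5p, at the top, match those of 18 others square by square.

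Over the 16 arrays the log2 signals of miR-181a-5p and miR-181b-5p had a Pearson r of 0.92 and a Spearman rho of 0.81. The guides are nearly identical in sequence, the arrays are shared, and many values lie at the floor, so these correlations are descriptions. Among tested miRNAs outside the family, those most like miR-181a-5p were miR-710 (r = 0.91), miR-7018-5p (r = 0.82), miR-3547-5p (r = 0.81), miR-714 (r = 0.81) and miR-483-5p (r = 0.80). Those most like miR-181b-5p were miR-710 (r = 0.83), miR-214-3p (r = 0.83), miR-7018-5p (r = 0.80), miR-497a-5p (r = 0.79) and miR-3547-5p (r = 0.79). The median r over the tested miRNAs was 0.0058 for miR-181a-5p and -0.0090 for miR-181b-5p. miR-214-3p had the same calls as the pair plus 4-week replicate 4, and its rho with miR-181b-5p was 0.86.

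Lists of miRNAs from cells that could feed serum were set beside the family. Of the leukocyte list 5 of 8 were tested, and between 58 and 4 weeks 0 passed in either direction (limma, over all 285), with a median log2 difference of 0.93 against -0.0031 over all tested. miR-146a-5p, which dampens inflammatory signalling, had 5.25 ± 0.81 (SD, n = 4) at 58 weeks and 3.05 ± 1.32 at 4 weeks (adjusted p = 0.574 in limma). The blood-cell miR-142a-3p had 6.48 ± 0.13 at 58 weeks and 5.50 ± 0.52 at 4 weeks, and miR-342-3p had 7.41 ± 0.12 and 6.48 ± 0.77 (limma, adjusted p = 0.864 for both). The summed scaled intensity of the leukocyte list ran from 389 to 607 at 4 weeks, from 163 to 718 at 8 weeks, from 233 to 906 at 36 weeks and from 794 to 884 at 58 weeks, and 3 of the 8 were detected on no array.

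The other lists held 0 miRNAs that passed between 58 and 4 weeks in either direction. Their median log2 differences were 0.08 for the endothelial and platelet list (4 of 6 tested), 0.08 for the erythrocyte list (4 of 6 tested) and 0.06 for the striated muscle list (3 of 6 tested). Members of a list lay on both sides of 0. In the endothelial and platelet list miR-199a-3p had 3.51 ± 0.53 (SD, n = 4) at 58 weeks and 5.93 ± 0.51 at 4 weeks (limma, adjusted p = 0.114), with detection in 1 of 4 mice of 58 weeks and 4 of 4 of 4 weeks. The myeloid miR-223-3p differed by 0.90 and the endothelial miR-126a-3p by 0.11. In the muscle list miR-1a-3p differed by -1.41 ± 1.26 (SE), miR-133a-3p by 0.07 and miR-133b-3p by 0.06. In the erythrocyte list miR-92a-3p differed by 0.73, miR-486a-5p by 0.59 and miR-451a by -0.52. Of the brain list 6 of 7 were detected on no array and miR-128-3p, the 1 tested, differed by 0.43. Red cell RNA, read as log2 miR-451a minus log2 miR-23a-3p, ranged from 2.64 to 4.19 in the 4-week mice, from 2.14 to 3.65 in those of 8 weeks, from 2.62 to 4.55 in those of 36 weeks and from 2.54 to 3.08 in those of 58 weeks. The lowest 4-week value lay on replicate 2, the array where all 4 guides were brightest. Its part in the miR-181 signals was not tested.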

How the data were processed

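Per the file headers and the submitters' processing notes, Agilent Feature Extraction 11.5 made the deposited background-subtracted intensity of each spot, total signal of each miRNA with its error, and detection calls. No spot was saturated. Outlier-flagged spots were left out, and intensity was averaged over spots of a probe, then over probes of a miRNA. Arrays were scaled to an equal 75th percentile, taken over 24 miRNAs that all 16 arrays detected, floored at 3.79 and put on the log2 scale. The 285 miRNAs detected on at least 3 of 4 arrays of at least 1 age were fitted with limma 3.58.1 in R 4.3.3 (lmFit, eBayes, 1 mean per age or a slope per doubling of age), with Benjamini-Hochberg adjustment over all 285 and a threshold of 0.05. Each member's SE uses its own residual spread. The fit was tested on simulated data. Members and lists were chosen with earlier results of these data known. Named miRNAs are the members, their opposite arms, the 5 tested miRNAs of highest Pearson r with each tested member, and up to 3 per list by smallest p between 58 and 4 weeks. Replicate numbers did not pair the arrays: 11 of 24 same-numbered pairs of deviations correlated above 0.1. Sequences came from the RefSeq table.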

Additional observations from a re-analysis of the deposited data

Results flagged for a closer look

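Of 22 sets of 4 values, each from 1 age, 7 held a value far from the rest, and about 1.1 such sets would be found by chance. For the guides all 5 such sets had the other 3 arrays at the floor of 1.92, where any value above it stands apart. At 58 weeks replicate 1 had a log2 signal of 2.54 for miR-181a-5p and 2.38 for miR-181b-5p, and replicate 3 had 2.03 for miR-181d-5p, none of them detected. At 4 weeks replicate 2 had 2.52 for miR-181c-5p and 3.59 for miR-181d-5p, both detected. Background did so too: negative-control spots had an SD of 3.54 on 8-week replicate 3, with 1.82 to 2.01 on the others of that age, and of 59.3 on 36-week replicate 4, with 2.76 to 4.39 on the others.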

How the results depend on the processing

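The slopes and differences of miR-181a-5p and miR-181b-5p against 4 weeks kept their sign under the alternatives run for them, except with normexp. This background correction, with an offset of 50, started from the median signal and median background of each spot. The other settings used the deposited background-subtracted intensity or total signal. Array weights, the trended and robust variance model and the fit of only the ages compared were run for the counts of calls alone. With normexp, the slopes of miR-181a-5p and miR-181b-5p were 0.052 and 0.040, 36 minus 4 weeks 0.11 and 0.046, 58 minus 4 weeks 0.060 and 0.021, and 8 minus 4 weeks -0.28 and -0.30. The normexp medians over all tested miRNAs were 0.12, 0.43, 0.26 and -0.17 in the same order. For miR-181b-5p normexp gave 0.35 for 36 minus 8 weeks and 0.32 for 58 minus 8 weeks, with medians of 0.51 and 0.47. Under quantile normalization 8 minus 4 weeks was -0.030 for miR-181a-5p and -0.016 for miR-181b-5p, and miR-181b-5p had -1.11 for 36 minus 4 weeks, -0.85 for 58 minus 4 weeks and a slope of -0.29. With the brightest probe only, miR-181b-5p had a slope of -0.20 and -0.98 at both 36 and 58 weeks against 4 weeks. It had -1.55 for 36 minus 4 weeks with the deposited total signal, -1.54 with a higher floor (2 times), and -3.22 for 58 minus 4 weeks with no scaling. Without the 3 marked arrays, miR-181a-5p had -2.59, -2.63 and -2.96 at 8, 36 and 58 weeks against 4 weeks, and miR-181b-5p had -2.63, -3.26 and -3.14. With slide as a block, chosen after seeing the data, the slopes were -1.04 ± 0.58 (SE) and -1.15 ± 0.52. Their SEs in the main fit were smaller, 0.16 and 0.15. Against 8 weeks the signs were less stable: they held in 24 and 25 of 27 alternatives at 36 weeks and in 25 of 27 for both members at 58 weeks. The causes were not tested.

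Counts of calls over all tested miRNAs moved more. For the trend (1 call) they were 6 with no scaling, 4 with the median, 17 with normexp, 8 with the brightest probe, 156 without the marked arrays, 184 with array weights, and 0 under quantile normalization, with the total signal, with outlier spots kept and with the slide block. For any age difference (1 call) they were 3 with no scaling, 4 with the brightest probe, 8 without the marked arrays, 2 with detection on at least 1 array and 203 with array weights. There they were 0 under quantile normalization, with the total signal, outlier spots kept, the higher floor, no detection filter and the replicate block. The slide block also gave 0, but it tested only the pairs within a slide, 8 against 4 and 58 against 36 weeks, jointly. For 36 against 4 weeks (1 call) they were 3 with no scaling, 2 with the median, 4 with the brightest probe, 5 without the marked arrays, 2 with detection on at least 1 array and 6 with array weights. There they were 0 under quantile normalization, with the total signal, outlier spots kept, the replicate block and only the ages compared. For 58 against 4 weeks (1 call) they were 3 with no scaling, 2 with the median, 4 with the brightest probe, 2 with the higher floor, 35 without the marked arrays, 2 with detection on at least 1 array, 2 with no detection filter, 151 with array weights and 4 with only the ages compared. There they were 0 under quantile normalization, with the total signal, normexp, outlier spots kept and the replicate block. Array weights gave 143 for 36 against 8 weeks, 189 for 58 against 8 and 18 for 58 against 36, and detection on at least 1 array gave 1 for 8 against 4. With 1 array left out the counts ran from 1 to 2 for the trend, from 0 to 2 for any difference and for 36 against 4 weeks, from 0 to 3 for 58 against 4 weeks and from 0 to 1 for 58 against 8 weeks. Both members were among the calls without the marked arrays in the trend (156 of 285 called) and for 58 against 4 weeks (35 of 285), and with array weights in the trend (184 of 285), in any difference (203 of 285) and for 58 against 4 weeks (151 of 285). Without the marked arrays, 1 member was among the calls for any difference (8 of 285) and for 36 against 4 weeks (5 of 285). With array weights, 1 was among those for 36 against 4 weeks (6 of 285). Nothing is read from the calls of members, since the family was picked with these values known. The replicate block left the members' differences as they were, with an SE of 0.75 for miR-181a-5p and 0.57 for miR-181b-5p between ages. The 75th percentile over all mouse miRNAs was not run, since it was not above 0 on some arrays.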
